A study of Mus musculus with 160 samples.

Results

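*Gata3*-GFP- sympathetic nervous system (SNS) cells were compared with *Gata3*-GFP- mesenchymal cells (MCs), both from the aorta-gonad-mesonephros (AGM) region of mouse embryos at E11.5 (E, embryonic day). The unit compared was a pool of 20 sorted cells, and the comparison holds 16 SNS pools and 14 MC pools, 30 of the 160 pools sequenced in the study. Measured values chose these pools. A pool needed over 500000 counts on genes plus ERCC spike-in RNAs, SNS pools with a raw *Pdgfrb* count above *Ngfr* were left out, and so were MC pools with a raw *Ngfr* count above *Pdgfrb*. *Ngfr* encodes the low-affinity neurotrophin receptor of neural crest cells and *Pdgfrb* a receptor for platelet-derived growth factor (PDGF) on mesenchymal and mural cells. Both genes are therefore described here and have no test.

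The study holds 8 sorted populations of 20 pools each. They are GFP+ and GFP- endothelial and haematopoietic cells of E10.5 embryos, and GFP+ and GFP- MCs and SNS cells of E11.5 embryos. The labels give the genotype *Gata3*-GFP +/- for every pool, GFP- pools included, so all groups carry the knock-in allele in which GFP is made from the *Gata3* locus. Dissected tissue was treated with collagenase, stained for surface markers and sorted into lysis buffer, and Smart-seq2, a protocol for cDNA of whole transcripts from few cells, was run with ERCC RNAs added. The labels name no strain and tie no pool to an embryo or a day of sorting, and the study's design text gives Ngfr as the marker that sorted SNS cells and Pdgfrb as that of MCs. The methods describe cells of 3 to 5 biological replicates being gathered by population before the wells were filled, and name endothelial and haematopoietic cells there. Pools of 1 population may therefore share embryos, and how many embryos stand behind the E11.5 pools is not given.

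Sympathetic neurons and the chromaffin cells of the adrenal medulla come from neural crest cells, which migrate to the dorsal aorta, and some reach it as Schwann cell precursors along nerves. Bone morphogenetic proteins (BMPs) from the aortic wall then switch on transcription factors such as GATA3, which turn on the enzymes of catecholamine synthesis. The mesenchyme around the aorta surrounds the vessel, gives rise to smooth muscle and other stroma, and secretes matrix and signals that act on the blood stem cells forming in the aorta, and catecholamines from the sympathetic cells act on them as well.

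Of the 20 GFP- SNS pools, 19 were over the limit on counts, and of the 20 GFP- MC pools, 17 were. The lowest total over the limit was 3346284 counts in SNS pools and 2075101 in MC pools, and the highest total under it was 433781 and 163695. The kept SNS pools held 821 to 2665 raw counts of *Ngfr* and 3 to 283 of *Pdgfrb*, and the kept MC pools held 2 to 51 and 234 to 1549. Nearest to the threshold, the lowest ratio of *Ngfr* to *Pdgfrb* among kept SNS pools was 9.42 and the highest among the SNS pools left out was 0.0485. In MC pools the lowest ratio of *Pdgfrb* to *Ngfr* that was kept was 10.53, and the highest left out was 0.0556. No pool lay between these values.

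The 6 pools left out, 3 SNS and 3 MC, also went against their labels in *Sox10*, which the choice did not use. This transcription factor of neural crest cells and glial precursors had 809 to 3133 raw counts in the kept SNS pools and 5 to 14 in the SNS pools left out. In MC pools it had 1 to 53 counts where kept and 394 to 2334 where left out. *Gata3*, the gene that drives the GFP used for the sort, had 72 to 466 counts in the kept SNS pools and 19 to 76 in the kept MC pools, against 192 to 214 in the SNS pools left out and 908 to 2072 in the MC pools left out, so that in SNS pools it did not set them apart. The same rule applied to the GFP+ pools found 3 SNS and 3 MC pools, so that each of the 4 E11.5 populations held 3 such pools, 12 in all. The 3 GFP+ SNS pools had 29 to 90 counts of *Gata3*, against 439 to 1999 in those that fit their label, and the 3 GFP+ MC pools had 1165 to 2715 of *Ngfr* and 1264 to 4305 of *Sox10*, but 76 to 303 of *Gata3*, near the 78 to 329 of those that fit their label. *Gata6*, a transcription factor of aortic mesenchyme, lay at 96.9 to 168 CPM (counts scaled to a common library total) in the GFP- SNS pools left out, within the 72.5 to 184 CPM of the GFP+ MC pools that fit their label and above the 38.3 CPM of the highest kept GFP- SNS pool. *Th*, tyrosine hydroxylase, lay at 70.4 to 512 CPM in the GFP- MC pools left out and at 9.18 to 360.2 CPM in such GFP+ SNS pools, against at most 5.89 CPM in the kept GFP- MC pools. In the order of the columns, the 12 pools are the last 3 of the 20 of each population. Every value by label below includes them. In these counts, the 3 GFP- SNS pools resembled GFP+ MC pools, and the 3 GFP- MC pools resembled GFP+ SNS pools. The 3 GFP+ MC pools resembled GFP- SNS pools, and the 3 GFP+ SNS pools resembled GFP- MC pools. How these pools came by their labels, and whether labels were exchanged between populations, was not tested. Values are therefore given for the kept pools and for all 19 SNS and 17 MC pools by label.

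**Figure D1:**
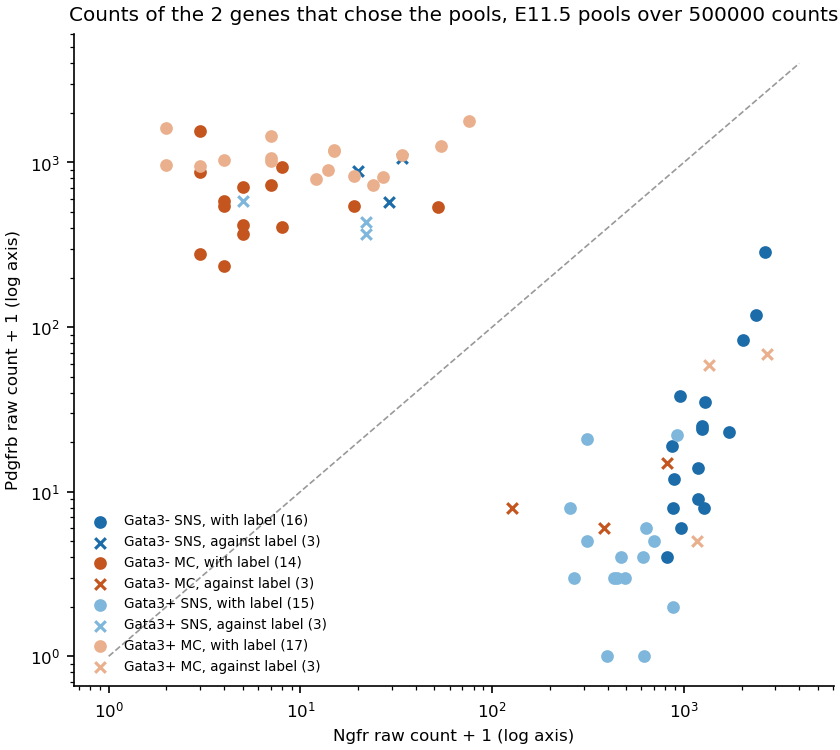
Raw counts plus 1 of Ngfr (x axis) and Pdgfrb (y axis) in each E11.5 pool over 500000 counts, on log scales, with crosses for the pools that go against their label. The 30 kept GFP- pools lie on the side of the diagonal that their label names, and 3 pools of each population lie on the other side.

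In the kept pools, counts on genes ran from 3326393 to 9147907 (median 4486698) in SNS and from 2054295 to 7361546 (median 3044422) in MCs. By label the means differed by 801481 counts, which did not pass a two-sided permutation test (adjusted p = 0.194 over the 4 values compared, with a threshold of 0.05). The ratio of gene counts to ERCC counts, a measure of RNA per pool, was 7.14 ± 0.28 on the log2 scale in kept SNS pools (SD, n = 16) and 6.63 ± 0.20 in kept MC pools (SD, n = 14), a difference of 0.52. By label the difference was 0.32 (adjusted p = 0.0264). Kept SNS pools also had more genes with at least 10 counts, 13258 ± 617 against 12364 ± 897, and by label the difference was 629 (adjusted p = 0.0488). This number of genes also depends on the depth of a pool, and it was not compared at equal depth. The mitochondrial share was 6.21% in both kept groups (by label, adjusted p = 0.934). ERCC RNAs were added to pools of equal cell number, but how many cells each well received was not measured.

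**Figure D2:**
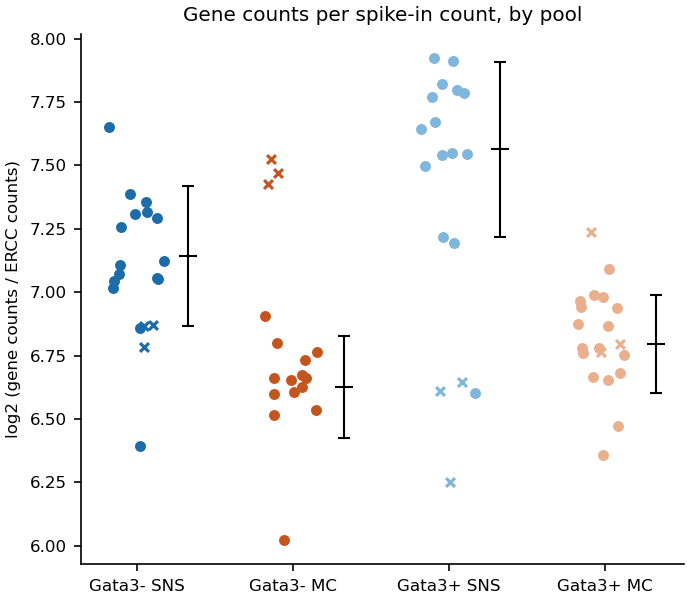
Log2 ratio of gene counts to ERCC counts (y axis) in each E11.5 pool over 500000 counts, by population, with crosses for the pools against their label and bars at the mean and SD of the others. Kept GFP- SNS pools averaged 7.14 and kept GFP- MC pools 6.63.

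Levels are given as CPM scaled by TMM, and fold changes as log2 of SNS over MC, so positive values are higher in SNS. Tests across genes are quasi-likelihood tests of edgeR with p-values adjusted by the method of Benjamini and Hochberg, and a gene passes where its adjusted p is under 0.01 and its log2 fold change lies further from 0 than 0.1. In the kept pools, 15478 genes had enough counts to be tested, 1744 were higher in SNS (11.3%) and 1666 lower (10.8%). Choosing pools by *Ngfr* and *Pdgfrb* selects along the same axis as the comparison, so these counts and the fold changes of the kept pools describe the pools chosen. Overlap between the kept groups is given for named genes only. The share of all tested genes without overlap is not given, so a lack of overlap is a description of those genes as well. The p-values given here and below are those by label, where no pool was chosen by a gene. By label 16045 genes were tested, and 507 were higher (3.16%) and 400 lower (2.49%). Of these, 498 were also among the 1744 (98.2% of 507, 28.6% of 1744) and 385 among the 1666 (96.2% of 400, 23.1% of 1666), and 0 passed in the opposite direction. A p-value here measures the spread between pools, which may share embryos and whose spread may be technical, and small changes are often missed. In pools of cells, fewer cells of a type and less RNA per cell cannot be told apart.

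The median log2 fold change of all genes tested was 0.018 in the kept pools and -0.013 by label. Scaling by ERCC RNAs in place of TMM moved it to 0.56, and the share of passing genes that were higher in SNS moved from 51.1% to 88.5%. All 1744 higher genes passed in the same direction under that scaling, whereas 747 of the 1666 lower genes did and 16 passed in the opposite direction. Fold changes here are relative to TMM, that is, to a weighted trimmed mean of the log ratios of genes between pools. The plot of list counts gives the number of genes of each list that passed, beside the number tested.

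**Figure D3:**
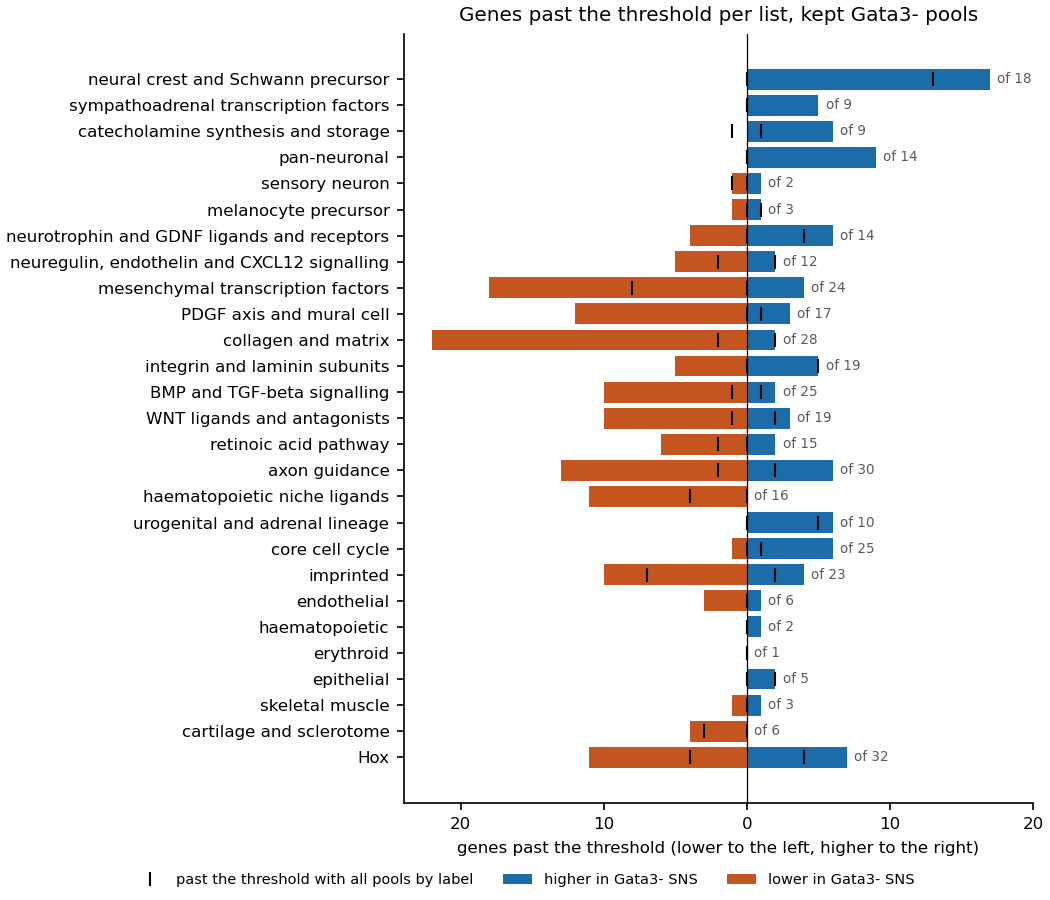
Number of genes of each list that passed as lower (to the left) or higher (to the right) in SNS, as bars for the kept pools beside the number tested and as ticks for all pools by label. Neural crest genes that passed lie on the higher side in both, and of the mesenchymal transcription factors 18 lie on the lower and 4 on the higher side in the kept pools.

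Neural crest and Schwann precursor genes had the largest median fold change of the lists. Of the 20 genes in this list, 18 had enough counts, and 17 were higher in SNS and 0 lower, with a median log2 fold change of 6.20. By label 13 of 19 were higher and 0 lower, with a median of 2.88. *Sox10* (ENSMUSG00000033006, chromosome 15 from 79154908 to 79165240 in GRCm38) lay at 241 to 415 CPM (median 326) in SNS pools and at 0.279 to 6.47 CPM (median 2.21) in MC pools. The groups did not overlap, and the log2 fold change was 6.85 (SE 0.23) in the kept pools and 2.98 (adjusted p = 0.00919) by label. *Foxd3*, a factor that keeps neural crest cells multipotent, lay at 8.99 to 59.3 CPM (median 24.5) in SNS pools and at 0 to 0.655 CPM (median 0) in MC pools. Its fold change was 6.98 (SE 0.40) and 4.13 (adjusted p = 9.06e-05) by label, again without overlap. *Erbb3*, the neuregulin receptor that Schwann cell precursors need to survive, was at 130.6 to 238 CPM (median 196) against 0.366 to 7.05 CPM (median 1.52). Its values were 6.59 (SE 0.24) and 3.34 (adjusted p = 0.0017).

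Genes of the early glial programme followed the same division. *Cdh19*, a cadherin of Schwann cell precursors, was at 119.7 to 244 CPM (median 178) against 0.272 to 2.82 CPM (median 0.829), a log2 fold change of 7.38 (SE 0.21) and of 3.74 (adjusted p = 0.000655) by label. *Ednrb*, the receptor for endothelin 3, and *Moxd1*, a monooxygenase gene active in neural crest, differed by 5.93 and 6.54, and by 3.56 and 3.89 by label. None of the 3 overlapped between the groups. *Ednrb* reached the highest median of the list in SNS pools, 697 CPM. *Fabp7*, a fatty acid binding protein of glial precursors, did not overlap either (5.78 (SE 0.29)), but by label it missed the threshold at 2.38 (adjusted p = 0.0222).

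Markers of later Schwann cells were low or did not differ. *Dhh*, a hedgehog ligand of committed Schwann cells, had 543 counts over all SNS pools and 2 over all MC pools, and its ratio in CPM was 179 with a 95% counting interval of 49.2 to 1479. By label its log2 fold change was 5.86 (adjusted p = 5.77e-06). Such intervals, and the floors used below, cover counting error only. Its values in SNS pools were 0 to 18.6 CPM (median 6.44). *Egr2*, the regulator of myelination, lay at 0 to 8.94 CPM (median 1.90) in SNS pools and at 0 to 29.2 CPM (median 1.94) in MC pools. The groups overlapped throughout, and *Egr2* did not pass in the kept pools or by label (adjusted p = 0.435).

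Because these genes moved together, their promoters were read for the letters ACAAAG, a motif bound by SOX factors, in the 250 bases before the gene start on either strand (CTTTGT in reverse). RefSeq promoters (build GRCm38.p6) were available for 15 genes of the list, with 20 windows, and 2 windows held the motif, against 16.5% of all 32817 windows. The 2 windows, both on the plus strand, are those of *Sox2* at chr3:34649745-34649994 and *Cnp* at chr11:100574689-100574938, and *Foxd3* at chr4:99656049-99656298 is shown beside them as a window without these letters. Capitals mark the motif. *Sox2*, a pluripotency and glial progenitor factor, was at 12.7 to 35.4 CPM (median 24.5) in SNS pools and at 0 to 1.33 CPM (median 0.0611) in MC pools, and *Cnp*, a gene of myelinating glia, was at 133.7 to 297 CPM (median 193) and 0.977 to 20.02 CPM (median 10.4). Their log2 fold changes were 6.20 and 4.10, and by label 2.61 (adjusted p = 0.0156) and 1.85 (adjusted p = 0.021). A match is a description of the letters only.
Sox2: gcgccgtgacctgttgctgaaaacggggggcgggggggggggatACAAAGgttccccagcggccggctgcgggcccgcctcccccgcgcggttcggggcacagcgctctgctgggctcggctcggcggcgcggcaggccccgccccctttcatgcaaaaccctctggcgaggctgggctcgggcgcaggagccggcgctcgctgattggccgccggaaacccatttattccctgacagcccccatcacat
Cnp: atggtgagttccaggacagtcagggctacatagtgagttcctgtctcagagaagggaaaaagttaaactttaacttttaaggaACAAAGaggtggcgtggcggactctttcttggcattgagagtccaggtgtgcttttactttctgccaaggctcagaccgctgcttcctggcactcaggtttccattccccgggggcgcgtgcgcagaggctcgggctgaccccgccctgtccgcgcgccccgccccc
Foxd3: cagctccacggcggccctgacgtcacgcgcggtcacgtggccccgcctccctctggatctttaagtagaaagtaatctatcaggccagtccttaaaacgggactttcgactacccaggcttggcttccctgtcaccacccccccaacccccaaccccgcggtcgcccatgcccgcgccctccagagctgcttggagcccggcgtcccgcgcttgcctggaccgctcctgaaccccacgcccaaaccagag

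For sympathoadrenal transcription factors, the result rests on the 6 pools left out. Of 10 genes, 9 were tested in the kept pools, 5 were higher and 0 lower, with a median of 2.17, whereas by label 0 of 10 passed in edgeR, with a median of -0.71. *Tfap2b* (ENSMUSG00000025927, chromosome 1 from 19208914 to 19238576), which sympathetic neurons need to survive, lay at 40.4 to 137.1 CPM (median 71.8) in SNS pools and at 0 to 1.08 CPM (median 0.487) in MC pools. Its log2 fold change was 7.22 (SE 0.26) without overlap, and by label 1.88 (adjusted p = 0.115). *Insm1*, a zinc finger factor of sympathetic progenitors, lay at 6.80 to 53.9 CPM (median 22.1) and 0 to 1.85 CPM (median 0.576), a change of 5.55 (SE 0.44), also without overlap, that fell to 0.16 (adjusted p = 0.936) by label.

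*Gata3* itself was measured in cells sorted for the absence of its reporter. It lay at 11.53 to 96.6 CPM (median 40.6) in SNS pools and at 2.57 to 19.6 CPM (median 9.31) in MC pools, with 14 of 16 SNS pools above every MC pool. The log2 fold change was 2.17 (SE 0.29) in the kept pools and -0.43 (adjusted p = 0.686) by label, so its direction rests on the pools left out. *Hand2* and *Hand1*, helix-loop-helix factors of noradrenergic cells, *Isl1*, a LIM factor of sympathetic and sensory neurons, and *Gata2* did not pass in either set. *Isl1* lay between 20.7 and 125.2 CPM in 10 pools and between 0 and 4.11 in the other 6.

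Catecholamine genes were low in GFP- SNS pools, and their direction also depended on the pools used. Of 11 genes, 9 were tested in the kept pools, 6 were higher and 0 lower, with a median of 3.46. By label 10 were tested, 1 was higher and 1 lower, and the median was -2.41. *Th* (ENSMUSG00000000214, chromosome 7 from 142892752 to 142931128) encodes tyrosine hydroxylase, which makes the catecholamine precursor L-DOPA. It lay at 0 to 29.95 CPM (median 7.25) in SNS pools and at 0 to 5.89 CPM (median 0.362) in MC pools. The groups overlapped, with 9 of 16 SNS pools above every MC pool, and the change was 3.46 (SE 0.73) in the kept pools and -3.01 (adjusted p = 0.0438) by label. *Dbh*, the enzyme that turns dopamine into noradrenaline, was at 1.52 to 178 CPM (median 26.9) and 0.244 to 6.04 CPM (median 2.15), with changes of 4.38 (SE 0.65) and -2.49 (adjusted p = 0.0996).

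Other steps of the pathway varied in the same way. *Ddc*, the decarboxylase between the steps of *Th* and *Dbh*, had 14 of 16 SNS pools above every MC pool, a change of 2.54 (SE 0.34) and 0.12 (adjusted p = 0.929) by label. *Chga*, a protein of secretory granules, changed by 3.46 and by -2.33 by label, and *Gch1*, which makes the cofactor of TH, did not pass in either set. *Slc18a1*, a vesicular monoamine transporter, had 3 counts over the MC pools and a ratio of 60.8 (95% interval 20.6 to 296, log2 fold change by label -1.75 (adjusted p = 0.256)). The gene higher by label was *Pnmt*, which makes adrenaline, with a median of 0.707 CPM in SNS pools and 0 counts in MC pools, at least 22.8-fold higher against a floor of 3 counts over the group (log2 fold change by label 5.21 (adjusted p = 0.00333)). The gene lower by label was *Chgb*, another granule protein, at -4.15 (adjusted p = 0.00893). It had too few counts in the kept pools to be tested.

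Pan-neuronal genes that passed in the kept pools were higher in SNS. Of 15 genes, 14 were tested, 9 were higher and 0 lower in the kept pools (median 2.76), and by label 0 of 15 passed (median -0.98). *Elavl4*, an RNA-binding protein of neurons, lay at 46.6 to 195 CPM (median 122.1) in SNS pools and at 1.69 to 7.89 CPM (median 3.88) in MC pools without overlap, a change of 4.89 (SE 0.24) and of 0.078 (adjusted p = 0.97) by label. *Tubb3*, the neuronal tubulin, was less even, at 7.81 to 289 CPM (median 105.8) in SNS and 3.07 to 35.1 CPM (median 10.7) in MC pools. In 10 SNS pools it lay between 75.5 and 289 CPM, above every MC pool, and in the other 6 between 7.81 and 28.3 CPM, within the MC range. Its change was 3.11 (SE 0.49) in the kept pools and -1.43 (adjusted p = 0.289) by label. *Nefm*, a neurofilament subunit, changed by 2.26 and by -1.24 by label, *Uchl1*, a neuronal ubiquitin hydrolase, by 1.99 and 0.14, and *Stmn2*, a tubulin-binding protein of growing axons, did not pass in either set.

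**Figure D4:**
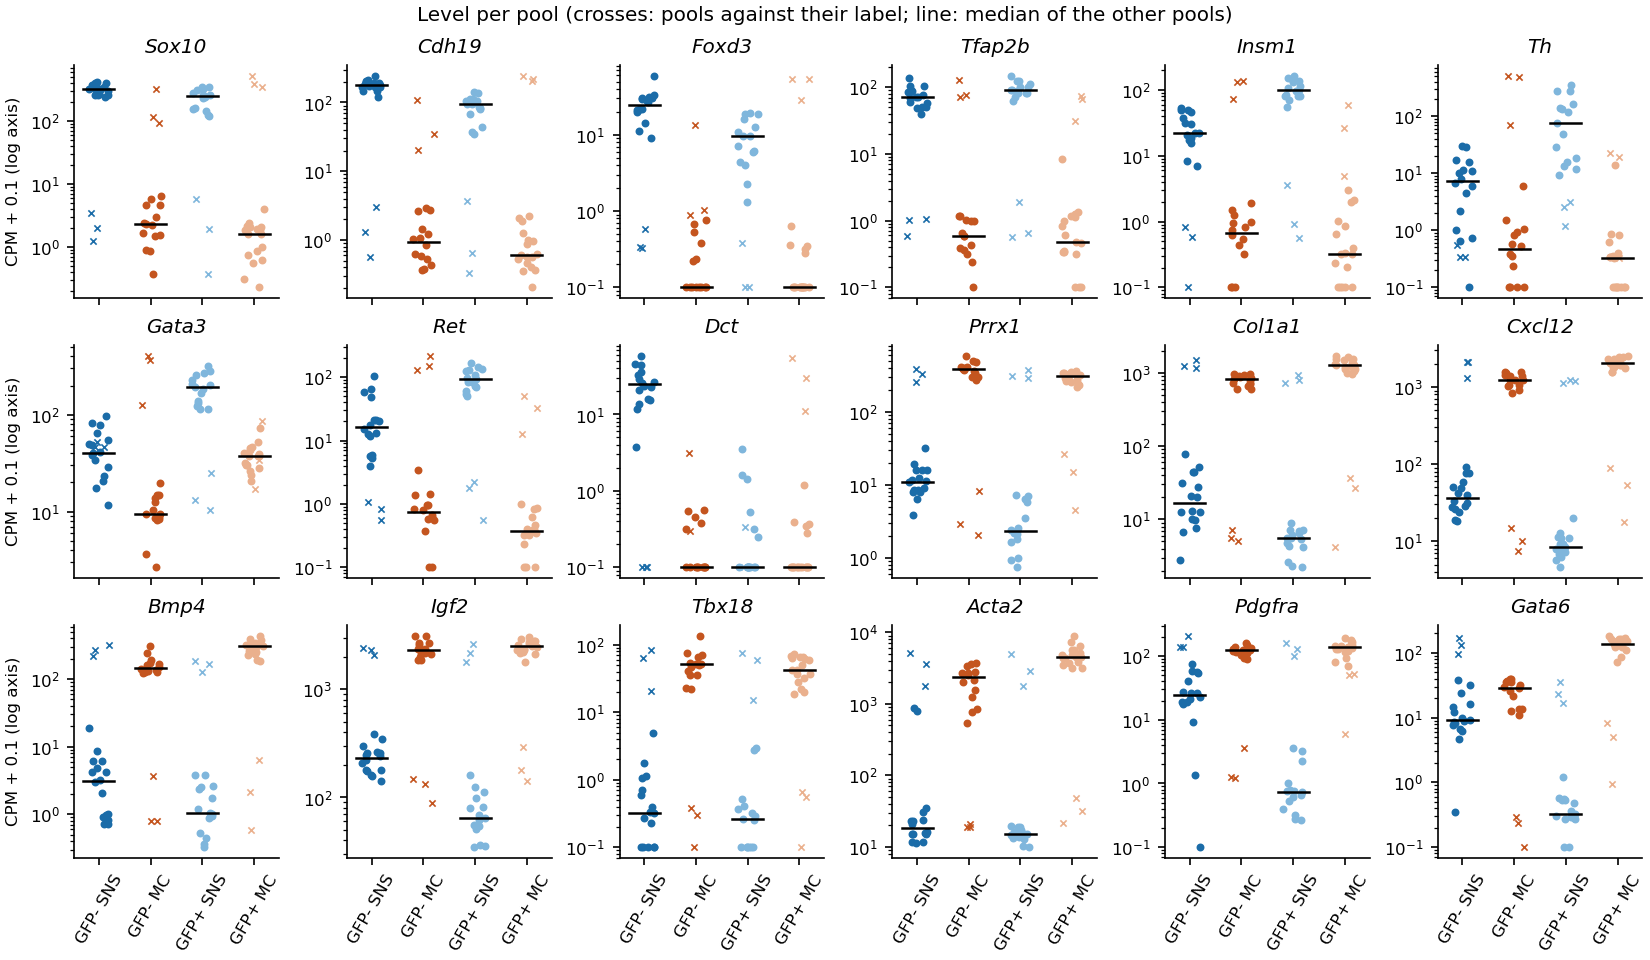
CPM plus 0.1 (y axis, log scale) of 18 genes in each E11.5 pool of the 4 populations, with crosses for the pools against their label and a line at the median of the other pools. Sox10 and Prrx1 do not overlap between the kept GFP- groups, whereas Th, Gata3 and Gata6 do.

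Markers of neighbouring crest fates were read as lists. Of 8 sensory neuron genes 2 were tested, with 1 higher and 1 lower (by label 0 and 1 of 3), and 1 of the 8, *Drgx*, has no entry in the count table. The higher one was *Tlx2*, a homeobox gene of crest-derived neurons, at 8.02 to 115.4 CPM (median 55.2) in SNS pools and at 0.258 to 4.15 CPM (median 1.52) in MC pools, without overlap (5.19 (SE 0.37), by label -0.59 (adjusted p = 0.72)). Of 7 melanocyte precursor genes 3 were tested, with 1 higher and 1 lower (by label 1 and 0). *Dct*, an enzyme of melanin synthesis, lay at 3.65 to 58.6 CPM (median 24.6) in SNS pools and at 0 to 0.462 CPM (median 0) in MC pools, was above 0 in all 16 SNS pools and did not overlap (7.68 (SE 0.48), by label 5.87 (adjusted p = 1.02e-06)). *Mitf*, the regulator that defines melanocytes, did not differ detectably, with medians of 2.97 and 3.50 CPM, and *Kit*, a receptor of melanoblasts and many other cells, was lower in SNS (-1.88 (SE 0.30), by label -1.07 (adjusted p = 0.0587)).

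Neurotrophin and GDNF-family genes went both ways. Of 14 genes, 6 were higher and 4 lower in the kept pools (median 0.96), and 4 higher and 0 lower by label (median 0.35). *Gfra3*, the co-receptor for artemin, lay at 74.5 to 171 CPM (median 120.6) in SNS pools and at 0.678 to 37.5 CPM (median 5.25) in MC pools (3.89 (SE 0.33), by label 3.25 (adjusted p = 3.68e-06)). *Gfra1*, the co-receptor for GDNF, differed by 3.19 (SE 0.44) and 2.21 (adjusted p = 0.00442) by label, and *Ret*, the kinase that both co-receptors signal through, by 5.01 (SE 0.56) and -0.44 (adjusted p = 0.806). None of these 3 overlapped in the kept pools. On the mesenchymal side, *Ntrk2*, the receptor for BDNF, lay at 0.207 to 14.3 CPM (median 0.486) in SNS pools and 63.2 to 175 CPM (median 134.8) in MC pools, with no overlap and a change of -5.63 (SE 0.48), though it missed the threshold by label at -1.86 (adjusted p = 0.145). *Ntf3*, a neurotrophin that keeps sympathetic neurons alive, was also lower in SNS (-2.81 (SE 0.54), by label -2.15 (adjusted p = 0.0203)), and the ligand *Gdnf* did not pass in either set.

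Genes of neuregulin, endothelin and CXCL12 signalling, which acts on neural crest cells, went both ways. Of 13 genes, 12 were tested. In the kept pools 2 were higher (*Erbb3* and *Ednrb*) and 5 lower, with a median of -0.30. By label 2 were higher and 2 lower, with a median of 0.0093. Under ERCC scaling of the kept pools 4 were higher and 4 lower, with a median of 0.20. *Edn3*, the ligand of EDNRB, lay at 0 to 7.15 CPM (median 0.736) in SNS pools and at 6.81 to 41.2 CPM (median 21.3) in MC pools, with 15 of 16 SNS pools below every MC pool. Its change was -3.75 (SE 0.51) in the kept pools and -3.02 (adjusted p = 0.00123) by label. *Nrg1*, the ligand of ERBB3, was low in both populations, with medians of 0.267 and 4.18 CPM (-2.59 (SE 0.71), by label -0.12 (adjusted p = 0.951)). *Cxcl12* (ENSMUSG00000061353, chromosome 6 from 117168535 to 117181367), a chemokine that guides crest cells and retains blood stem cells, lay at 18.4 to 91.4 CPM (median 36.6) in SNS pools and 840.4 to 1555 CPM (median 1243) in MC pools. It differed by -4.84 (SE 0.21) without overlap, and by -1.65 (adjusted p = 0.136) by label. *Ednra*, the other endothelin receptor, was lower in SNS by a smaller margin (-1.05 (SE 0.12), by label -0.44 (adjusted p = 0.29)).

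Mesenchymal transcription factors were the reverse of the crest list. All 24 genes were tested, 18 were lower in SNS and 4 higher, with a median of -2.85, and by label 8 were lower and 0 higher, with a median of -1.69. *Prrx1* (ENSMUSG00000026586, chromosome 1 from 163245119 to 163313710), a homeobox gene of limb and trunk mesenchyme, lay at 3.70 to 31.6 CPM (median 10.98) in SNS pools and at 276 to 589 CPM (median 385) in MC pools. The groups did not overlap (-5.02 (SE 0.20)), and by label the change was -2.40 (adjusted p = 0.0143). *Twist1*, which holds cells in a mesenchymal state, was at 0 to 6.18 CPM (median 2.32) against 26.1 to 108.1 CPM (median 39.5), and changed by -4.11 (SE 0.40) and -2.61 (adjusted p = 0.00462). *Foxd1*, a factor of stromal progenitors, and *Foxc1*, which patterns mesenchyme and vessels, changed by -4.57 and -3.47 and passed by label at -2.86 (adjusted p = 0.00231) and -1.92 (adjusted p = 0.00963).

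*Foxf2*, a forkhead gene of gut and pericyte mesenchyme, was close to off in SNS pools, at 0 to 0.596 CPM (median 0) against 4.69 to 104.2 CPM (median 26.9) (-8.28 (SE 0.56), by label -7.37 (adjusted p = 2.26e-08)). *Tbx18*, a T-box gene of mural and urogenital mesenchyme, changed by -6.42 (SE 0.47) without overlap, but by label it missed the threshold (-2.26 (adjusted p = 0.0744)). *Snai2* and *Osr1*, a zinc finger factor shared by crest and mesenchyme and a factor of intermediate mesoderm, changed by -1.98 and -2.37, and did not overlap. The T-box repressors *Tbx2* and *Tbx3* were on the other side. *Tbx2* lay at 21.6 to 77.9 CPM (median 42.7) in SNS pools and at 0 to 11.98 CPM (median 2.98) in MC pools (3.79 (SE 0.41), by label 0.96 (adjusted p = 0.365)), and *Tbx3* changed by 2.81 (SE 0.28) and 0.63 (adjusted p = 0.515). *Tcf21*, a factor of visceral mesoderm, overlapped throughout and did not pass, at 0 to 81.9 CPM (median 24.96) and 5.78 to 74.04 CPM (median 28.5).

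PDGF and mural cell genes, which mark pericytes and smooth muscle, followed. Of 17 genes, 12 were lower in SNS and 3 higher in the kept pools (median -2.06), whereas by label 0 were lower and 1 higher (median -0.32). *Acta2*, smooth muscle actin, lay at 11.4 to 884 CPM (median 18.6) in SNS pools and at 538 to 3681 CPM (median 2374) in MC pools. A pair of SNS pools stood apart at 884 and 789 CPM, and the other 14 lay between 11.4 and 34.8, below every MC pool. Its change was -4.16 (SE 0.74) in the kept pools and -1.46 (adjusted p = 0.296) by label. *Pdgfra*, the other PDGF receptor, was at 0 to 74.96 CPM (median 24.1) and 91.5 to 163 CPM (median 124.8) without overlap (-2.06 (SE 0.34), by label -1.02 (adjusted p = 0.215)). *Rgs5* and *Kcnj8*, a signalling regulator and a potassium channel of pericytes, changed by -3.48 and -6.16 without overlap, and by 0.24 and -1.74 by label. The gene that passed by label was *Mcam*, an adhesion molecule of mural and crest cells, at 167 to 313 CPM (median 216) in SNS pools and 65.9 to 177 CPM (median 110.6) in MC pools (1.05 (SE 0.13), by label 1.10 (adjusted p = 3.14e-07)).

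Matrix genes were mostly mesenchymal. Of 28 collagen and matrix genes, 22 were lower in SNS and 2 higher (median -1.56), and by label 2 were lower and 2 higher (median -0.83). *Col1a1*, the main chain of fibrillar collagen, lay at 2.68 to 77.1 CPM (median 16.6) in SNS pools and at 594 to 964 CPM (median 809) in MC pools (-4.99 (SE 0.32), by label -1.54 (adjusted p = 0.205)). *Fn1*, the fibronectin on which crest cells migrate, and *Col3a1*, another fibrillar collagen, changed by -2.83 and -2.03. None of the 3 overlapped in the kept pools, and none passed by label (adjusted p = 0.273 for *Fn1* and 0.155 for *Col3a1*). *Eln*, the elastin of arterial walls, changed by -5.01 (SE 0.52) and -1.67 (adjusted p = 0.173) by label.

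The 2 matrix genes higher in SNS were higher in both sets of pools. *Postn*, periostin, a secreted adhesion protein of connective tissue and Schwann cell precursors, lay at 522 to 1112 CPM (median 802) in SNS pools and at 95.04 to 397 CPM (median 214) in MC pools (1.95 (SE 0.17), by label 1.96 (adjusted p = 4.31e-08)). *Col18a1*, a basement membrane collagen, lay at 64.1 to 164 CPM (median 111.8) and 16.8 to 57.8 CPM (median 24.5) (1.97 (SE 0.18), by label 1.33 (adjusted p = 0.000872)). Neither overlapped. Integrins and laminins, receptors and parts of basement membranes, went both ways. Of 21 integrin and laminin genes, 19 were tested in the kept pools, 5 were higher and 5 lower, and the median was -0.36. By label 5 were higher and 0 lower, and the median was 0.21. Under ERCC scaling of the kept pools 6 were higher and 4 lower, and the median was 0.14.

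The 5 integrin and laminin genes higher by label were the 5 higher in the kept pools. *Itga6*, a laminin receptor of glia, lay at 138.5 to 299.7 CPM (median 181) in SNS pools and at 0.837 to 25.8 CPM (median 16.8) in MC pools (3.70 (SE 0.27), by label 2.94 (adjusted p = 4.86e-06)). *Itga4*, a fibronectin receptor of migrating crest cells, was at 113.1 to 251 CPM (median 153.4) and 3.63 to 37.5 CPM (median 17.2) (3.22 (SE 0.26), by label 2.64 (adjusted p = 1.4e-05)), and neither gene overlapped. The laminin chains *Lama4*, *Lamc1* and *Lamb1* changed by 2.48, 1.27 and 0.82, and by 2.07, 1.22 and 0.78 by label. *Itga9*, a receptor for tenascin, and *Lama2*, the laminin chain of muscle, were lower in SNS (-1.94 and -3.16) and missed the threshold by label.

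BMPs are signals that induce sympathetic fate. Of 27 genes of BMP and TGF-beta signalling, 25 were tested, 2 were higher and 10 lower (by label 1 and 1), and the median of -0.42 turned to 0.16 under ERCC scaling (then 8 higher and 5 lower). *Bmp4*, the ligand, lay at 0.616 to 18.9 CPM (median 3.03) in SNS pools and at 121.4 to 309.9 CPM (median 144.6) in MC pools, without overlap (-5.25 (SE 0.35), by label -1.58 (adjusted p = 0.204)). *Bmper*, which binds BMPs outside the cell, changed by -3.48 (SE 0.49) and -2.17 (adjusted p = 0.0179). *Bambi*, a pseudoreceptor that BMP signalling induces, was higher in SNS at 0.81 (SE 0.18) and 0.82 (adjusted p = 0.0013), and *Id1*, a target gene of BMP signalling, changed by 0.53 (SE 0.13) with overlap and by -0.027 (adjusted p = 0.964).

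WNT genes divided by member. Of 21 WNT ligands and antagonists, 19 were tested, 3 were higher and 10 lower (median -1.70), and by label 2 and 1 (median -0.89). *Wnt2*, a ligand of lung and vessel mesenchyme, had 2 counts over all SNS pools and 833 over all MC pools, a ratio of 633 in favour of MCs (95% interval 175 to 5236, log2 fold change by label -4.06 (adjusted p = 0.00256)). *Wnt11*, a ligand of the non-canonical branch, and *Sfrp2*, a secreted WNT antagonist, were lower in SNS at -4.30 (SE 0.57) and -3.23 (SE 0.32), and by label at -2.56 (adjusted p = 0.0182) and -0.38 (adjusted p = 0.788). *Sfrp5*, a related antagonist, had 2 counts over the MC pools and lay at 0 to 76.7 CPM (median 5.06) in SNS pools, with 76.7 CPM in 1 pool and at most 25.8 in the other 15. By label its change was 5.62 (adjusted p = 6.84e-05). *Lef1*, the transcription factor that WNT signalling acts through, was higher in SNS without overlap (1.63 (SE 0.21), by label 0.93 (adjusted p = 0.0379)).

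Retinoic acid is made by mesenchyme and acts on neighbouring cells. Of 17 pathway genes, 15 were tested, 2 were higher and 6 lower (median 0.023), and by label 0 and 2. Under ERCC scaling 5 were higher and 5 lower (median 0.56). *Crabp1*, a retinoic acid binding protein, lay at 45.9 to 589 CPM (median 106.7) in SNS pools and at 1743 to 3249 CPM (median 2726) in MC pools without overlap (-3.96 (SE 0.30), by label -3.30 (adjusted p = 3.61e-06)). *Aldh1a2*, the enzyme that makes retinoic acid, was at 8.77 to 96.2 CPM (median 20.3) and 34.2 to 462 CPM (median 163), with 11 of 16 SNS pools below every MC pool (-2.65 (SE 0.37), by label -1.56 (adjusted p = 0.064)). The receptors went opposite ways. *Rarb*, itself a target of retinoic acid, changed by -1.84 (SE 0.23) and -1.52 (adjusted p = 0.000146), and *Rara* by 1.03 (SE 0.12) and 0.57 (adjusted p = 0.0389).

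Axon guidance genes steer both axons and migrating crest cells. Of 31 genes, 30 were tested, 6 were higher and 13 lower (by label 2 and 2), and the median of -0.31 turned to 0.25 under ERCC scaling (then 7 higher and 8 lower). *Sema3d*, a secreted semaphorin, lay at 22.2 to 54.9 CPM (median 38.9) in SNS pools and at 0 to 11.2 CPM (median 2.99) in MC pools (3.35 (SE 0.43), by label 3.13 (adjusted p = 0.000259)). *Plxna4*, a semaphorin receptor of sympathetic neurons, and *Robo2*, a receptor for SLIT proteins, changed by 4.09 and 2.14 without overlap and missed the threshold by label. The ephrin receptors *Epha4* and *Epha7* were lower in SNS without overlap, by -2.81 and -1.81, and by -2.30 (adjusted p = 0.000725) and -0.60 (adjusted p = 0.269) by label.

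Ligands known from blood stem cell niches were on the mesenchymal side where they passed in the kept pools or by label. Of 22 genes, 21 have an entry in the count table (*Flt3l* has none) and 16 were tested. In the kept pools 11 were lower in SNS and 0 higher (median -1.08, under ERCC scaling -0.56 with 1 higher and 8 lower), and by label 4 were lower and 0 higher (median -0.67). *Igf2*, insulin-like growth factor 2, lay at 141.9 to 389.7 CPM (median 233) in SNS pools and at 1866 to 3144 CPM (median 2323) in MC pools (-3.35 (SE 0.13), by label -1.85 (adjusted p = 0.00657)). *Ptn* and *Mdk*, the heparin-binding growth factors pleiotrophin and midkine, changed by -3.30 (SE 0.28) and -1.08 (SE 0.07), and by -2.03 (adjusted p = 0.00887) and -0.68 (adjusted p = 0.00646) by label. None of the 3 overlapped. *Kitl*, stem cell factor, overlapped and did not pass in either set, with medians of 48.1 CPM in SNS pools and 20.7 CPM in MC pools.

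Imprinted genes, of which 1 parental copy is expressed, include fetal growth regulators. Of 24 genes, 23 were tested. In the kept pools 4 were higher and 10 lower, with a median of -0.32. By label 2 were higher and 7 lower, with a median of -0.39. Under ERCC scaling of the kept pools 9 were higher and 10 lower, with a median of 0.21. *H19*, the RNA made beside *Igf2*, lay at 274 to 477 CPM (median 328) in SNS pools and at 1081 to 3297 CPM (median 1565) in MC pools (-2.22 (SE 0.12), by label -1.34 (adjusted p = 0.0035)). *Dlk1* and *Meg3*, which share an imprinted cluster, changed by -3.00 (SE 0.22) and -2.06 (SE 0.19), and by -2.18 (adjusted p = 5.84e-05) and -1.43 (adjusted p = 0.00593) by label. *Plagl1*, a zinc finger factor that regulates other imprinted genes, changed by -2.84 (SE 0.22) and -2.21 (adjusted p = 0.000137). None of these 4 overlapped in the kept pools. *Cdkn1c*, an inhibitor of the cell cycle, was on the other side, at 1539 to 2628 CPM (median 1861) in SNS pools and 575 to 994 CPM (median 719) in MC pools (1.43 (SE 0.09), by label 0.38 (adjusted p = 0.441)), as was *Peg10*, a gene derived from a retrotransposon (1.11 (SE 0.15), by label 0.79 (adjusted p = 0.00534)).

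The cell cycle machinery was read as a list. Of 25 core genes, 6 were higher and 1 lower in the kept pools (median 0.078), and by label 1 and 0 (median -0.085). Under ERCC scaling 11 were higher and 0 lower (median 0.68). *Ccnd1*, a cyclin that growth signals induce, lay at 248 to 588 CPM (median 409) in SNS pools and at 28.9 to 96.4 CPM (median 51.3) in MC pools (2.82 (SE 0.15), by label 1.25 (adjusted p = 0.058)). The gene that passed by label was *Cdk6*, a kinase partner of such cyclins (1.53 (SE 0.18), by label 1.23 (adjusted p = 0.000338)). *Pcna*, the clamp of DNA replication, and *Mki67*, which marks cycling cells, did not pass in either set and overlapped, with medians of 223 and 238 CPM for *Pcna* and 96.1 and 118.5 CPM for *Mki67*.

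Hox genes record the position of a cell along the body axis. Of 39 genes, 32 were tested. In the kept pools 7 were higher and 11 lower, with a median of -0.27. By label 4 were higher and 4 lower, with a median of -0.18. Under ERCC scaling of the kept pools 8 were higher and 7 lower, with a median of 0.31. *Hoxb9* lay at 76.02 to 130.3 CPM (median 104.2) in SNS pools and at 5.17 to 46.9 CPM (median 22.2) in MC pools, without overlap (2.19 (SE 0.20), by label 1.33 (adjusted p = 0.00393)). *Hoxa5* lay at 2.28 to 25.4 CPM (median 14.2) and 27.3 to 118.2 CPM (median 71.1), also without overlap (-2.32 (SE 0.26), by label -1.50 (adjusted p = 0.00271)). *Hoxb1* and *Hoxd12*, from opposite ends of their clusters, were both higher in SNS with medians of 3.50 and 4.98 CPM against 0 in MCs (4.26 (adjusted p = 0.0021) and 3.99 (adjusted p = 0.00313) by label).

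Genes of the urogenital ridge and adrenal cortex, tissues that lie beside the aorta at this stage, were present in GFP- SNS pools. Of 13 genes, 10 were tested, 6 were higher in SNS and 0 lower (median 2.65), and by label 5 were higher and 0 lower (median 2.55). Their summed level was 17.95 to 585 CPM (median 204) in SNS pools and 36.3 to 212 CPM (median 106.6) in MC pools, and *Wt1* had the highest median in both. *Nr5a1* (ENSMUSG00000026751, chromosome 2 from 38692656 to 38714542), the nuclear receptor that defines adrenal cortex and gonad, lay at 0 to 80.8 CPM (median 9.88) in SNS pools and at 0 to 0.558 CPM (median 0) in MC pools, with 13 of 16 SNS pools above every MC pool (6.27 (SE 0.81), by label 6.22 (adjusted p = 1.54e-06)). *Lhx9* and *Gata4*, factors of the gonadal ridge, changed by 3.45 (SE 0.71) and 3.08 (SE 0.72), and by 3.51 (adjusted p = 0.00229) and 3.15 (adjusted p = 0.00436) by label. *Wt1*, which also marks mesonephric mesenchyme, did not pass, at 0.970 to 187 CPM (median 73.2) and 14.2 to 164 CPM (median 60.5). The part of such cells in the differences between the populations was not tested.

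The SNS pools varied in these genes more than in *Sox10*. *Lhx9* reached 95.5 CPM, and 3 SNS pools lay at or under 4.80 CPM. *Wt1* lay at 13.02 and 0.970 CPM in its lowest SNS pools and at 38.2 or more in the other 14. *Pdgfra*, from the mural list, was at 1.28 and 0 CPM in its lowest SNS pools and at 8.98 or more in the other 14, while *Sox10* stayed within 241 to 415 CPM over all 16.

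Markers of other cell types were mostly low. The 10 endothelial genes summed to 2.68 to 31.3 CPM (median 20.8) in SNS pools and 26.2 to 86.9 CPM (median 47.3) in MC pools. Of these 6 were tested, with 1 higher and 3 lower in SNS (by label 0 and 0, median -1.13), and *Egfl7* and *Emcn* had the highest medians in SNS and MC pools, 8.82 and 21.2 CPM. *Emcn*, the endothelial sialomucin endomucin, changed by -5.22 (SE 0.63) and -2.81 (adjusted p = 0.0159) by label. The 10 haematopoietic genes summed to 3.88 to 44.97 CPM (median 16.5) and 0.352 to 49.5 CPM (median 12.4), 2 were tested and 1 was higher (by label 0 of 3). It was *Laptm5*, a lysosomal protein of blood cells, at 1.94 to 40.2 CPM (median 13.3) in SNS pools and 0 to 2.43 CPM (median 0.0611) in MC pools (5.73 (SE 0.56), by label 1.25 (adjusted p = 0.319)). *Ptprc*, the pan-leukocyte antigen, had a median of 0 in SNS and 0 in MC pools. The 10 erythroid genes summed to 0.434 to 4.93 CPM (median 1.59) and 0 to 6.97 CPM (median 1.68), with 0 of 1 tested passing and *Alas2* the one with the highest median.

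Of 10 epithelial genes 5 were tested and 2 were higher in SNS in both sets, with summed levels of 1.46 to 45.8 CPM (median 14.6) in SNS pools and 0.360 to 20.5 CPM (median 10.8) in MC pools. They were the kidney duct genes *Pax2*, which had the highest median of the list in SNS pools (4.74 CPM) and 1 count over all MC pools (ratio 268, 95% interval 47.8 to 10603, log2 fold change by label 6.44 (adjusted p = 1.73e-06)), and *Pax8* (5.68 (SE 1.07), by label 5.62 (adjusted p = 0.000134)). *Krt18*, a keratin, had the highest median in MC pools, 4.64 CPM, and *Epcam*, the defining epithelial adhesion molecule, had medians of 0.249 and 0 CPM. The 9 skeletal muscle genes summed to 11.4 to 176 CPM (median 35.8) and 7.21 to 1157 CPM (median 158.4). Of these 3 were tested, with 1 higher and 1 lower (by label 0). The lower one was *Actc1*, cardiac actin, at 2.90 to 154.8 CPM (median 8.38) in SNS pools and 6.35 to 1149 CPM (median 152.02) in MC pools (by label -1.40 (adjusted p = 0.269)), and the higher one *Pax3*, a factor of crest and muscle precursors, at 0.419 to 18.4 CPM (median 8.09) and 0 to 0.517 CPM (median 0) (by label 1.83 (adjusted p = 0.145)). *Myod1*, which defines muscle, had 0 and 8 raw counts in all.

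Cartilage and sclerotome genes summed to 18.3 to 63.7 CPM (median 33.98) in SNS pools and 65.6 to 338 CPM (median 99.2) in MC pools. Of 8 genes 6 were tested, 4 were lower in SNS and 0 higher (median -3.20), and by label 3 were lower (median -2.45). *Sox9*, a chondrogenic and crest factor with the highest median in both, lay at 12.7 to 60.9 CPM (median 26.1) and 41.5 to 216 CPM (median 73.98) (-1.66 (SE 0.25), by label -1.14 (adjusted p = 0.0153)). *Pax1* and *Pax9*, which define the sclerotome, changed by -4.78 (SE 0.73) and -4.73 (SE 0.66), and by -4.70 (adjusted p = 0.000168) and -3.75 (adjusted p = 0.000699) by label. *Nkx3-2*, another sclerotome factor, had 0 counts in every SNS pool and 271 over the MC pools, at least 137.3-fold lower in SNS (log2 fold change by label -5.14 (adjusted p = 5.2e-05)). Whether cells of these other types were in the pools was not tested.

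Across all genes, the largest rises in SNS included crest genes and a receptor. *Sh3tc2*, which Schwann cells need for myelination, was above 0 in all 16 SNS pools (3.77 to 22.9 CPM (median 9.96)) and at 0 in all 14 MC pools, at least 179.6-fold higher (log2 fold change by label 3.64 (adjusted p = 0.00124)). *Sel1l3*, a gene of unclear function, was at 0 in all MC pools as well, at least 189-fold higher in SNS (by label 8.12 (adjusted p = 4.89e-05)). *Gpr17*, a receptor of glial precursors, lay at 57.8 to 138.5 CPM (median 89.01) against 0 to 1.44 CPM (median 0) (8.16 (SE 0.34), by label 3.99 (adjusted p = 0.000541)). *Dlx2*, a homeobox gene of crest cells, lay at 127.04 to 225 CPM (median 162) against 0.444 to 2.18 CPM (median 0.835) (7.37 (SE 0.17), by label 2.65 (adjusted p = 0.0225)). *Car6*, a secreted carbonic anhydrase, had 1 count over the MC pools and a ratio of 561 (95% interval 100.5 to 22194, log2 fold change by label 5.74 (adjusted p = 3.29e-06)). *Dct*, *Cdh19* and *Tfap2b* were also among the 10 largest rises.

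Among the largest falls were signals and matrix genes. *Apela*, a peptide ligand of the apelin receptor, was at 0 in all 16 SNS pools and at 0.360 to 22.97 CPM (median 7.43) in MC pools, at least 286-fold lower in SNS (log2 fold change by label -3.98 (adjusted p = 0.00141)). *Tbx1*, a T-box gene of head and trunk mesoderm, lay at 0 to 2.92 CPM (median 0.229) in SNS pools and at 10.45 to 181 CPM (median 111.3) in MC pools (-7.37 (SE 0.46), by label -6.94 (adjusted p = 2.26e-08)). *Fbln5*, which assembles elastic fibres, lay at 0.131 to 8.43 CPM (median 1.74) and 172 to 665 CPM (median 247) (-6.73 (SE 0.30), by label -1.77 (adjusted p = 0.193)). *Itgbl1*, a secreted protein with integrin-like repeats, *Lrp1b*, an endocytic receptor, and *Gsc*, a homeobox gene of mesenchyme, changed by -8.18, -6.95 and -6.62, and by -4.75, -2.34 and -2.68 by label. *Arsj*, an arylsulfatase, had 2 counts over the SNS pools, a ratio of 291 in favour of MCs (95% interval 80.02 to 2412, log2 fold change by label -3.79 (adjusted p = 0.00187)). *Foxf2* and *Wnt2* were also among the 10 largest falls.

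The same contrast in GFP+ cells asks which of these differences belong to cells without the reporter. It uses 18 SNS and 20 MC pools by label, none of them used to choose the GFP- pools, and 16352 genes were tested. By label, 2080 were higher in SNS (12.7%) and 2109 lower (12.9%). Without the 6 pools that go against their label, 15 SNS and 17 MC pools remain, and 3019 of 15995 genes were higher (18.9%) and 3136 lower (19.6%), which describes the pools chosen. Of the 1744 genes higher in kept GFP- pools, 1209 were also higher in these GFP+ pools (69.3% of 1744, 40.05% of 3019), and 39 were lower. In GFP+ pools by label these were 761 (43.6% of 1744, 36.6% of 2080) and 45. Of the 1666 lower genes, 1277 were also lower (76.7% of 1666, 40.7% of 3136), and 21 were higher, and by label 867 (52.04% of 1666, 41.1% of 2109) and 27. Scaling the GFP+ pools by label with ERCC RNAs moved the share of higher genes from 49.7% to 88.7%.

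Whether the contrast differed between GFP- and GFP+ cells was tested by the interaction, the GFP- difference minus the GFP+ difference, in 1 fit of the 4 populations. With all pools by label, a fit added after the data had been seen, 17731 genes were tested, 796 had a higher value in GFP- cells (4.49%) and 917 a lower one (5.17%). The p-values of interactions below are from this fit. With kept GFP- pools and GFP+ pools by label, 17517 were tested, 579 were higher (3.31%) and 510 lower (2.91%), and this fit leaves out pools against their label on 1 side only. Without such pools on either side, 17307 were tested, 974 were higher (5.63%) and 819 lower (4.73%). Of the genes that passed by label, 590 of the 796 (74.1% of 796, 60.6% of 974) and 601 of the 917 (65.5% of 917, 73.4% of 819) passed there too, and 0 in the opposite direction. Under ERCC scaling by label the median interaction moved from 0.011 to -0.37 and the share of passing genes with a higher value from 46.5% to 23.7%. Sizes below are from the fit without pools against their label, as a description with SE, followed by the value by label, relative to TMM.

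Of 19 crest genes, 3 had a higher interaction by label and 0 a lower one. The count depended on the pools, with 1 and 0 without the pools against their label and 13 and 0 with kept GFP- pools and GFP+ pools by label. *Itga4* passed in all 3 fits (2.14 (SE 0.40), by label 2.43 (adjusted p = 0.000578)). *Sox10* (-0.59 (SE 0.37), by label 1.37 (adjusted p = 0.478)) and *Erbb3* (-0.26 (SE 0.37), by label 1.79 (adjusted p = 0.284)) did not pass by label. *Gata3*, whose level set the GFP gate, differed between SNS and MCs by 2.36 in GFP+ cells without the pools against their label. Its interaction rests on those pools (-0.20 (SE 0.32), by label -2.51 (adjusted p = 0.00234)). Its medians were 194 and 37.1 CPM in these GFP+ SNS and MC pools, against 40.6 and 9.31 CPM in the kept GFP- ones.

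In neuronal genes that passed the interaction, the contrast was lower in GFP- than in GFP+ cells. By label, 5 of the 10 sympathoadrenal factors had a lower interaction and 0 a higher one, of 10 catecholamine genes 8 and 0, and of 15 pan-neuronal genes 12 and 0. Without the pools against their label these were 2, 2 and 4 lower and 0 higher. *Tubb3* (-3.26 (SE 0.65), by label -6.14 (adjusted p = 2.18e-05)), *Ret* (-3.23 (SE 0.72), by label -4.41 (adjusted p = 0.00354)) and *Tlx2* (-3.90 (SE 0.50), by label -5.22 (adjusted p = 0.000737)) were among the genes with lower values. *Th* had a median of 77.2 CPM in GFP+ SNS pools that fit their label and 7.25 CPM in kept GFP- ones (-3.44 (SE 1.13), by label -7.95 (adjusted p = 7.5e-06)). For each of these genes the size by label was larger than without the pools against their label. The size and p-value of *Th* by label rest in part on those pools, which include GFP- MC pools with *Th* above every kept GFP- MC pool. Of 25 cell cycle genes, 0 had a higher interaction and 12 a lower one by label, and 0 and 15 without the pools against their label. They include *Pcna* (-1.34 (SE 0.18), by label -1.25 (adjusted p = 1.18e-06)) and *Ccne1*, a cyclin of entry into DNA synthesis (-2.30 (SE 0.27), by label -1.92 (adjusted p = 6.98e-05)).

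In integrin, laminin and urogenital genes that passed, the contrast was higher in GFP- than in GFP+ cells. By label, 9 of 21 integrin and laminin genes had a higher interaction and 0 a lower one, and of 11 urogenital genes 7 and 0, against 12 and 0 and 9 and 0 without the pools against their label. Of 17 mural genes the counts were 5 and 0 by label and 12 and 0 without those pools, and of 28 matrix genes 7 and 1 against 14 and 1. Mesenchymal transcription factors went both ways, with 2 higher and 3 lower of 24 by label and 8 and 4 without those pools. *Gata6* was at 0.244 to 38.3 CPM (median 9.01) in kept GFP- SNS pools and had a median of 0.226 CPM in GFP+ ones that fit their label (7.59 (SE 0.46), by label 5.33 (adjusted p = 1.52e-05)). *Pdgfra* had medians of 24.1 and 0.632 CPM in these pools, and its interaction did not pass by label (5.07 (SE 0.49), by label 1.44 (adjusted p = 0.301)). Those of *Cxcl12* (2.95 (SE 0.24), by label 1.46 (adjusted p = 0.395)), *Wt1* (4.84 (SE 0.64), by label 1.15 (adjusted p = 0.419)) and *Tcf21* (5.51 (SE 0.82), by label 1.72 (adjusted p = 0.231)) did not pass by label either. Some genes reversed. *Postn* differed by 1.95 in kept GFP- pools and by -1.25 in such GFP+ pools, *Mcam* by 1.05 and -1.39, and *Gata4* by 3.08 and -5.47. Their interactions by label were 3.40 (adjusted p = 1.58e-12), 2.49 (adjusted p = 1.65e-14) and 7.89 (adjusted p = 6.29e-07).

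**Figure D5:**
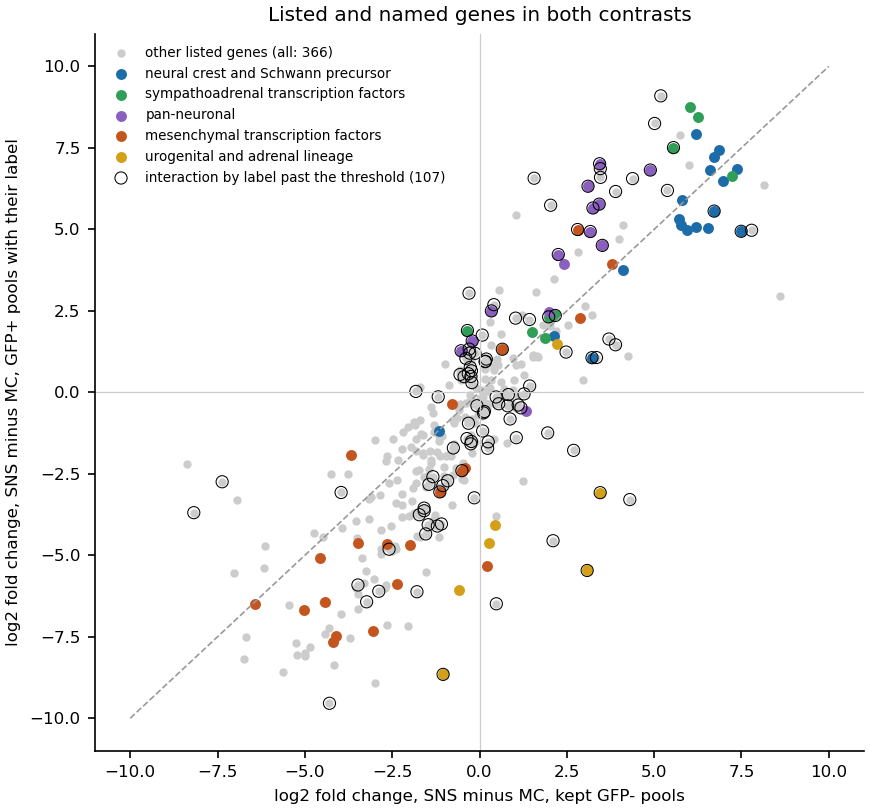
Log2 fold change of SNS over MC in kept GFP- pools (x axis) and in GFP+ pools without those against their label (y axis) for 366 listed and named genes, coloured by list, with rings around those that passed the interaction by label. Neural crest genes lie near the dashed line of equal values, and urogenital genes lie below it.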

How the data were processed

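Reads per gene were counted in 160 pools, and the deposited values are raw HTSeq counts (unit: counts) that the authors neither normalized nor filtered, for 46078 genes and 92 ERCC RNAs. The study's methods name STAR with Ensembl 81 and the submitters' notes name GSNAP with HTSeq 0.5.3p3. Among all reads of the 30 pools, 9.38% to 13% lay on no gene and 6.52% to 19.8% on more than 1.

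Tests required 10 or more counts of a gene in 5 or more compared pools. They used edgeR 4.0.16 (R 4.3.3) with TMM scaling and robust quasi-likelihood fits, p-values were adjusted over every gene in the fit by the Benjamini-Hochberg method, and each SE is the log2 fold change divided by the root of F. *Ngfr* and *Pdgfrb* were left out before adjustment. CPM used TMM factors over all E11.5 pools over the limit. Pool totals and shares were compared by permutation (two-sided, 100000 resamples). Alternatives used DESeq2 1.42.0, scran 1.30.0 and scanpy 1.11.5, and figures matplotlib 3.10.9. Steps were tested on simulated data. Positions came from GENCODE M21 (GRCm38).

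Named genes are the markers *Ngfr*, *Pdgfrb* and *Sox10*, *Gata3*, members of the gene lists and Hox genes, and genes from the 10 largest rises and 10 largest falls among passing genes with a symbol that is no clone name and 10 or more counts in 75% of pools of the population where they are higher, and the 5 largest interactions in each direction of the fit with kept GFP- and all GFP+ pools. The pools, the lists and the members described were chosen with earlier results of these data known. Some genes that these rules select are not reported here.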

Additional observations from a re-analysis of the deposited data

Results flagged for a closer look

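The difference between SNS cells and MCs was not the same in GFP- and GFP+ cells. edgeR's interaction test, with all pools of the 4 populations by label, found 796 genes whose log2 fold change was higher in GFP- cells and 917 whose was lower, and a passing interaction by label is what brings a gene here. The genes named are among the largest interactions of the fit with kept GFP- pools and GFP+ pools by label, in which 579 were higher and 510 lower. In the higher direction they include *Dct* at 9.41 by label (adjusted p = 3.64e-07) and 5.93 without the pools against their label, *Sel1l3* at 9.11 by label (adjusted p = 5.64e-06) and 7.64 without the pools against their label and *Rpp25* at 8.41 by label (adjusted p = 2.61e-09) and 7.64 without the pools against their label, a gene for a subunit of an RNA-processing enzyme. In the lower direction they include *Pax1* at -10.39 by label (adjusted p = 1.02e-07) and -4.79 without the pools against their label, *Foxf2* at -9.55 by label (adjusted p = 1.77e-07) and -6.17 without the pools against their label, *Tbx1* at -9.41 by label (adjusted p = 8.86e-09) and -4.60 without the pools against their label and *Itgbl1* at -5.95 by label (adjusted p = 0.000757) and -4.56 without the pools against their label. The sizes by label were larger in each of these genes than without the pools against their label. *Foxf2* lay at 8.88 to 38.2 CPM in the 3 GFP+ SNS pools against their label. In pools that fit their label it was at most 1.52 CPM in GFP+ SNS and at most 12.9 CPM in GFP+ MCs. Its size and p-value by label therefore rest in part on those 3 SNS pools. *Sel1l3* was at 0 in every kept GFP- MC pool, so its fitted size depends on the prior count and only its direction can be read. *Dct* was at most 0.462 CPM in kept GFP- MC pools, and *Foxf2* at most 0.596 CPM in kept GFP- SNS pools. The fitted sizes of *Dct* and *Foxf2* therefore also depend in part on values near 0. What lies behind these differences was not tested.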

How the results depend on the processing

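Taking all GFP- pools by label reversed some of the named genes. The 1744 genes higher in SNS became 507, or 571 with the pools under the limit on counts added, and the 1666 lower genes became 400, or 407. Of the named genes that passed in the kept pools, 61 passed by label in the same direction, 50 kept their direction and no longer passed, and 11 changed direction. These 11, with their log2 fold change by label and with the pools under the limit added, were *Gata3* at -0.43 and -0.31, *Th* at -3.01 and -2.92, *Dbh* at -2.49 and -2.28, *Chga* at -2.33 and -1.88, *Slc18a1* at -1.75 and -1.72, *Tubb3* at -1.43 and -1.29, *Nefm* at -1.24 and -1.07, *Tlx2* at -0.59 and -0.50, *Ret* at -0.44 and -0.37, *Rgs5* at 0.24 and 0.24 and *Id1* at -0.027 and -0.016. Of 20 that did not pass in the kept pools, 5 changed direction in both settings, *Gata6*, *Gch1*, *Hand1*, *Hand2* and *Isl1*, and *Gch1* passed with the pools under the limit added, at -3.63. By construction these settings add the 6 pools whose *Ngfr* and *Pdgfrb* counts go against their label.

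Scaling by ERCC RNAs gave 5750 higher and 748 lower genes, and a log2 fold change over 1 in place of 0.1 gave 964 and 978, fewer by construction. In the GFP+ pools, the 2080 higher and 2109 lower genes became 7296 and 931 under ERCC scaling, 800 and 1153 with a log2 fold change over 1, and 8976 and 1225 under ERCC scaling without the pools against their label. The 1089 interactions of kept GFP- and all GFP+ pools became 1713 with all pools by label and 1866 with ERCC scaling added to that, 1793 without the GFP+ pools against their label, 559 under ERCC scaling, 678 with a log2 fold change over 1, and 1873 without those pools and under ERCC scaling. The cause of the shifts under ERCC scaling was not tested.

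DESeq2 size factors, scran size factors, no filter on genes, 10 counts in 10 pools, DESeq2's Wald test, scanpy's t-test and 1 fit of 4 populations kept the GFP- counts between 1587 and 1967 for higher genes and between 1574 and 1951 for lower genes. Of the named genes that passed, 0 changed direction under these settings, ERCC scaling or an adjusted p under 0.05. Of those that did not pass, 6 changed direction under ERCC scaling (*Epcam*, *Gata2*, *Mitf*, *Mki67*, *Pcna* and *Stmn2*) and 5 with scanpy's t-test (*Epcam*, *Mitf*, *Stmn2*, *Tcf21* and *Wt1*). Thinning all pools to one depth, tried after seeing the data as were the interactions with all pools by label and ERCC scaling of the GFP+ pools without those against their label, gave 1583 higher and 1665 lower genes, of which 1513 and 1557 were among the 1744 and 1666. The differences in counts, RNA per spike-in and genes with at least 10 counts kept their direction by label, and that in mitochondrial share changed direction.

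No paired analysis was possible because the columns carry no number that ties an SNS pool and an MC pool to 1 replicate. Depth limits genes with few counts: a gene at 0 in a group is bounded by 3 counts over that group, and small fold changes, most of all interactions, are often missed. Of the genes named, 43 share exon bases with another annotated gene, 11 on the same strand and 39 on the opposite one, and since the strand and overlap settings of the counting are not stated, reads of such neighbours cannot be told apart. *Foxd3*, *Gata3*, *Pdgfra*, *Col3a1*, *Igf2* and *H19* are among the 11.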
